A study of Mus musculus with 6 samples.

Results

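The genes described here encode proteins that detect DNA or RNA in the cytosol, pass that signal on, or keep the cell's own nucleic acids from setting it off: Ifih1, Dhx58, Zbp1, Eif2ak2, Mavs, Trex1, Samhd1 and Adar. These 8 genes were taken by name, and each was to be read from the probe set annotated to that symbol alone with the highest mean over the arrays. Of the 8, 7 were measured in this way, among 22180 genes in all. Trex1 was not, because its probe set is annotated to Atrip as well.

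The arrays asked how an antibody against the receptor CSF1R altered gene expression in macrophages kept with myeloma cells. CSF1R binds CSF1 (M-CSF) and IL-34, the growth factors of macrophages. Bone marrow cells from 3 C57BL/KaLwRij mice were grown in M-CSF for 7 days, kept overnight with the murine myeloma line 5TGM1-luc, which carries luciferase, and treated for 3 days. The CSF1R antibody group (3 arrays) received 0.5 nM anti-mouse CSF1R, and the IgG group (3 arrays) received a control IgG, whose dose is not given apart from that of the antibody. All cultures thus shared the strain, the M-CSF culture and the myeloma cells, and all were washed 4 times before RNA was taken. The labels tie no array to a mouse. The p-values therefore rest on how far these samples differ from each other, which may be only technical, and 3 arrays a group limit the precision. Between 2 arrays of the same group the log2 values correlated at 0.992 to 0.993 across probe sets, and between arrays of different groups at 0.984 to 0.985.

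MDA5, the product of Ifih1, is a helicase that detects long double-stranded RNA and signals through MAVS, an adaptor on mitochondria, to the kinases and transcription factors that switch on interferon genes. LGP2 (Dhx58) lacks the signalling domain of MDA5 and tunes it, ZBP1 binds nucleic acids in the left-handed Z form and can start necroptosis, and PKR (Eif2ak2) halts translation when it meets double-stranded RNA. TREX1 degrades cytosolic DNA, SAMHD1 breaks down dNTPs, and ADAR edits double-stranded RNA so that MDA5 and PKR ignore it. Most of these genes are themselves induced by interferon, through a promoter sequence called the interferon-stimulated response element.

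Promoter windows from RefSeq (GRCm38.p6; 250 bases before to 50 after each annotated start) matched 6 of the 8 genes, with 9 windows in all. Dhx58 and Zbp1 were not matched. The core of the interferon-stimulated response element, 2 copies of GAAA (or of TTTC, on the other strand) with any 2 bases between them, was found in the windows of Ifih1 and Eif2ak2. Over all 27025 genes with a window, 3.99% held it. In both genes it lay just inside the transcribed part, at bases 33 to 42 of Ifih1 and 19 to 28 of Eif2ak2, counted from 1 at the start. A shorter core bound by interferon regulatory factors, AANNGAAA or TTTCNNTT, was searched after the windows had been seen, and it overlaps the longer one. It was also in 1 of the 3 Adar windows, at bases 30 to 37, but 26.7% of all genes hold it. The gamma-activated sequence core TTCNNNGAA, which is the same on both strands and is held by 9.55% of genes, was found for Eif2ak2, Samhd1 and Adar, and in Adar it overlaps the shorter core. The windows of Trex1 and Mavs held none of these letters. Of the 4 windows that follow, Ifih1 and Eif2ak2 are shown for the longer core (capitals), Adar for the shorter one (capitals), and Mavs because it alone of the measured genes did not pass the test described next. They lie at chr2:62646206-62646505 (minus strand), chr17:78882523-78882822 (minus strand), chr3:89730468-89730767 (plus strand) and chr2:131233813-131234112 (plus strand). A match is a description of the sequence only.
Ifih1: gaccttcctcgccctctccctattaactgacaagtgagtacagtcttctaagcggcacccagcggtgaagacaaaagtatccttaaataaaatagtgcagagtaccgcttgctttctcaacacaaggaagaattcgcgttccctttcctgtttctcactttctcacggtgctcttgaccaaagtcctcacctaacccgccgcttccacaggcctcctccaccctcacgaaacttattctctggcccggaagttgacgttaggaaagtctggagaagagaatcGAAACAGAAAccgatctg
Eif2ak2: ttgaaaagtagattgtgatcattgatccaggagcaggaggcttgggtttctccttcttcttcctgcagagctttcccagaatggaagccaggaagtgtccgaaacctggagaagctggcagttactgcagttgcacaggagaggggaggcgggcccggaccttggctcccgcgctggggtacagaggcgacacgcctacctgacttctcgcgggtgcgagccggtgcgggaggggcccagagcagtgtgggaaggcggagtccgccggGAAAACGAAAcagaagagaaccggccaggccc
Adar: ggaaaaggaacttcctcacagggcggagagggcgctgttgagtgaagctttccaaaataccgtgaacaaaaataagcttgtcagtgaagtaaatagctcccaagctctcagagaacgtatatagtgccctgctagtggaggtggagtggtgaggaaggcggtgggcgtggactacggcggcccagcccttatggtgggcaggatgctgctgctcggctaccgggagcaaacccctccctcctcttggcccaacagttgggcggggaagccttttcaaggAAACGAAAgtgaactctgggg
Mavs: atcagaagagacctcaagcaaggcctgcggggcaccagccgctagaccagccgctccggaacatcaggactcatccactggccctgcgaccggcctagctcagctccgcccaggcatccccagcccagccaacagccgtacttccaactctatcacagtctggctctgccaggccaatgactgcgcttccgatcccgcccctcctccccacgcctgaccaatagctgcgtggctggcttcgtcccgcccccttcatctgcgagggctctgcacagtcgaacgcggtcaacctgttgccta

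With the CSF1R antibody, 6 of the 7 measured genes were higher than with IgG and 0 were lower (limma, Benjamini-Hochberg adjusted p below 0.05 over all genes). Of all genes tested, 12.5% were called higher and 16% lower, or 28.5% in either direction. All 7 lay above the background guide that is set out with the processing. When only the 13110 genes above that guide were tested, 2932 were higher and 4037 lower, which are larger shares. The median change of the 7 was 0.89 on the log2 scale, beside −0.02 over all genes. In the order of their changes the 6 were Ifih1, Dhx58, Zbp1, Samhd1, Eif2ak2 and Adar. Of these, 3 rose by at least 2-fold and passed the test, as did 2.89% of all genes. For all 6, the 3 antibody arrays lay wholly above the 3 IgG arrays, as they did for 16.6% of all genes. In either direction, 39.3% of all genes had groups that did not overlap. Values are log2 of array intensities that the submitters had normalised, so they compare a gene between groups and not one gene with another. In RNA from a whole culture, fewer cells of a type and less RNA per cell cannot be told apart.

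**Figure D1:**
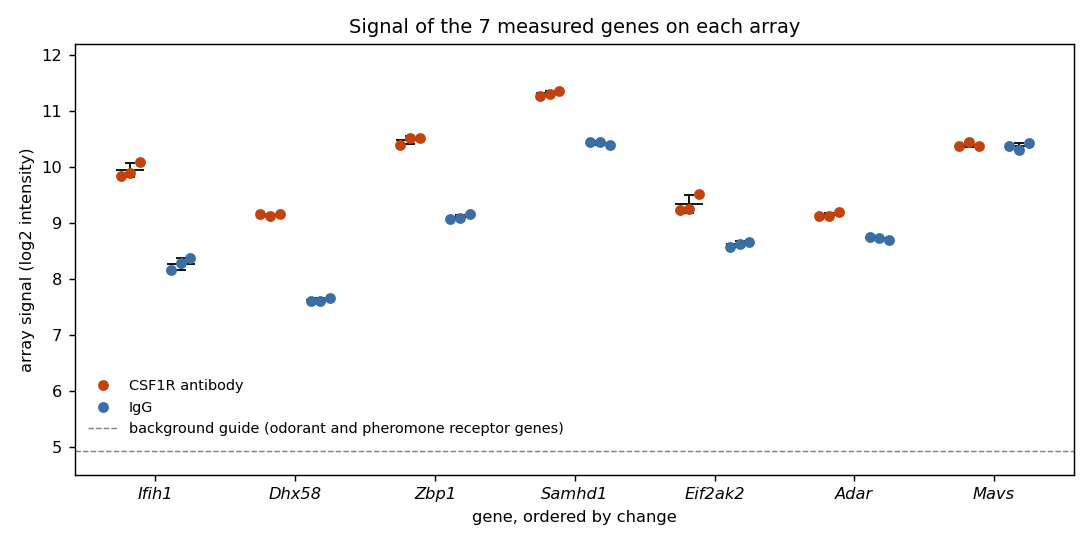
Signal of the 7 measured genes (vertical axis, log2 intensity) on each antibody array (orange, left) and IgG array (blue, right). Bars are means and SDs over 3 arrays, and the dashed line is the background guide at 4.92. The groups do not overlap for any gene but Mavs.

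Ifih1 had the largest change of the 7 measured genes. Its signal was 9.84, 9.90 and 10.09 on the antibody arrays, against 8.15, 8.29 and 8.37 on the IgG arrays. Every antibody array lay at least 1.47 above every IgG array. The log2 difference was 1.67 (SE 0.09), or 3.19-fold, with a limma adjusted p of 3.1e-05, and 109 of the 22180 genes rose by more. Dhx58, whose product LGP2 assists MDA5, read 9.16, 9.12 and 9.15 with the antibody and 7.60, 7.60 and 7.66 with IgG. Its arrays were the most tightly grouped of the 7 genes with the antibody, with an SD of 0.02 there and 0.035 with IgG (n = 3 each). It rose by 1.52 (SE 0.05; 2.88-fold; limma adjusted p = 8.5e-06). The third helicase of the family, RIG-I, is no member of the 8 but belongs beside them. Its gene, Ddx58, stood at 9.72 ± 0.06 with the antibody and 8.33 ± 0.01 with IgG (SD, n = 3), a rise of 1.39 (SE 0.05; limma adjusted p = 1.1e-05). All 3 RIG-I-like receptors were thus higher by more than 2-fold.

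Zbp1, the sensor of Z-form nucleic acids, gave 10.40, 10.52 and 10.52 on the antibody arrays and 9.08, 9.09 and 9.15 on the IgG arrays. The groups were 1.24 apart at their closest. The rise was 1.37 (SE 0.05; 2.58-fold; limma adjusted p = 1.4e-05). Eif2ak2, the gene of the kinase PKR, was at 9.23, 9.26 and 9.52 with the antibody and 8.57, 8.63 and 8.67 with IgG. One antibody array, replicate 3, stood above the other two, and the SD of 0.16 in that group was the widest of the 7 genes. Eif2ak2 rose by 0.72 (SE 0.09; 1.64-fold; limma adjusted p = 0.0012).

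The adaptor was the exception. Mavs read 10.38, 10.45 and 10.37 on the antibody arrays and 10.37, 10.30 and 10.43 on the IgG arrays. The groups overlapped, with 10.40 ± 0.04 with the antibody and 10.37 ± 0.07 with IgG (SD, n = 3). The difference was 0.03 (SE 0.05; limma adjusted p = 0.71), and its 95% interval ran from −0.10 to 0.17. That interval leaves out a change as large as that of any of the other 6 genes, the least of which was 0.42. Without IgG replicate 2 the difference was −6.17e-05, with arrays centred on their medians 0.08 and with cyclic loess scaling 0.15 (limma adjusted p = 0.13).

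Both measured restrainers rose as well. Samhd1, whose product hydrolyses dNTPs, gave 11.28, 11.31 and 11.36 with the antibody and 10.45, 10.45 and 10.39 with IgG. Its groups were 0.82 apart at their closest. It rose by 0.89 (SE 0.05; 1.85-fold; limma adjusted p = 3.6e-05). Adar, the gene of the RNA-editing enzyme, read 9.13, 9.12 and 9.19 with the antibody and 8.76, 8.73 and 8.69 with IgG. The arrays of the groups came within 0.36 of each other. Adar had the smallest rise of the 6, 0.42 (SE 0.05; 1.34-fold; limma adjusted p = 0.00082). ADAR is made as a long form from an interferon-inducible promoter and as a short constitutive form, and no source used here ties the probe set to either.

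**Figure D2:**
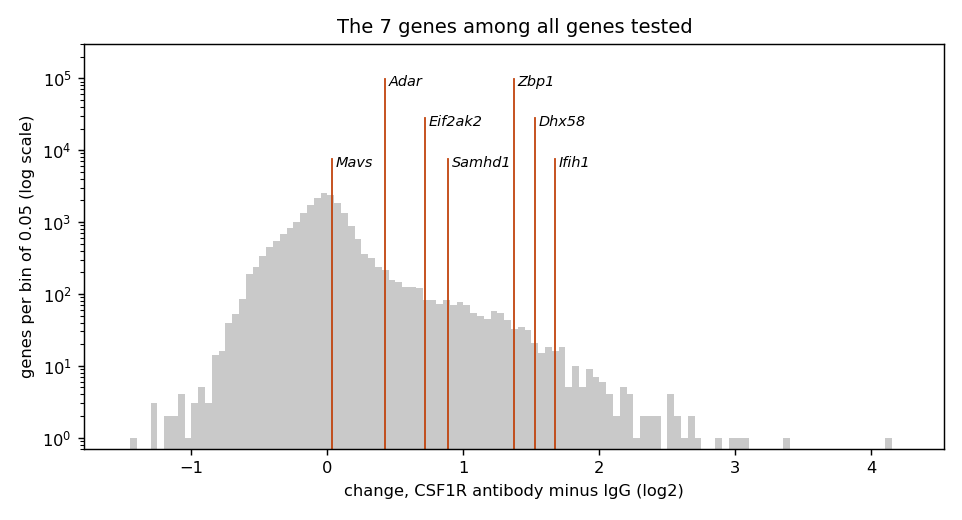
Histogram of the change of all 22180 genes (horizontal axis, CSF1R antibody minus IgG, log2; vertical axis, genes per bin on a log scale), with vertical lines at the 7 measured genes. Ifih1 at 1.67 has 109 genes to its right, and Mavs at 0.03 lies near the median of −0.02.

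Whether neighbours in this order changed unequally was asked from the log2 ratio of the 2 genes on each array. The order itself came from these same changes, so each ratio was bound to be higher with the antibody, and that direction is no result. The ratio of Zbp1 to Samhd1 was higher with the antibody by 0.48, that of Adar to Mavs by 0.39, that of Eif2ak2 to Adar by 0.29 and that of Dhx58 to Zbp1 by 0.16, with groups that did not overlap (exact two-sided permutation p = 0.1 each). This is the smallest p that 3 arrays against 3 allow, and adjusted over the 6 pairs it was 0.15, so none passed 0.05. In the other 2 pairs the ratios overlapped between groups. They were Ifih1 over Dhx58, by 0.15 (exact permutation p = 0.3; adjusted p = 0.3), and Samhd1 over Eif2ak2, by 0.17 (exact permutation p = 0.2; adjusted p = 0.24).

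Antibody replicate 3 was the highest array of its group for 4 of the 7 genes, and IgG replicate 3 for 5. Ifih1 and Eif2ak2 deviated most, by 0.145 and 0.18 above their group mean on antibody replicate 3. Samhd1 and Adar ran the other way within the IgG group, where replicate 3 was their lowest array, by 0.04 and 0.03. All these deviations were smaller than the difference between groups for each of the 6 genes that rose.

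**Figure D3:**
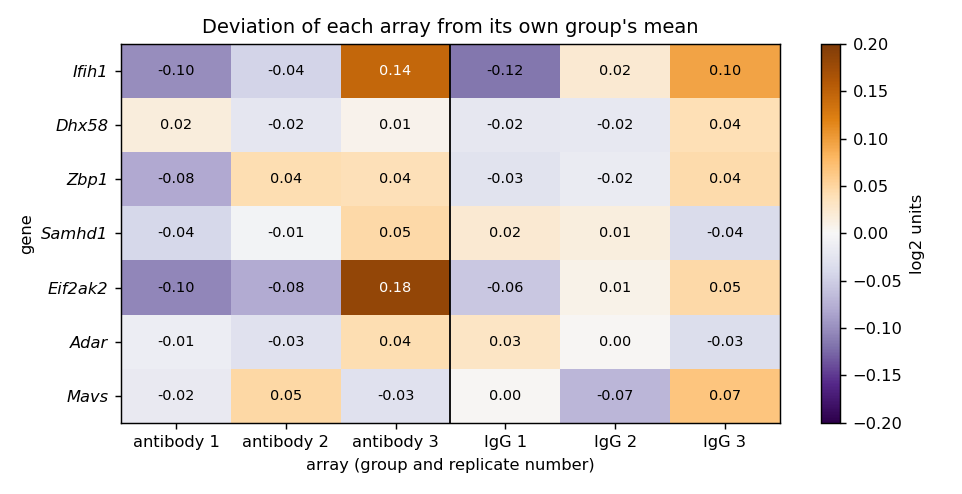
Deviation of each array (columns, antibody arrays left) from the mean of its own group for the 7 measured genes (rows), in log2 units. The largest deviation is that of Eif2ak2 on antibody replicate 3, at 0.18.

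For each gene the nearest profile was sought among 12279 other named genes with signal above a background guide, as the smallest Euclidean distance between log2 values centred over the 6 arrays. With 2 groups of 3, such a distance mainly reflects the size of the change. Ifih1 lay nearest to Ms4a7, a membrane protein gene of macrophages (distance 0.08; Ms4a7 rose by 1.69). Dhx58 lay nearest to P2ry6, a receptor for UDP (0.03; rise of 1.52), whose 3 antibody arrays held identical values, and then to C1qa, a complement gene (0.05; rise of 1.52). Zbp1 lay nearest to Rnf213, a ubiquitin ligase gene (0.07; rise of 1.35). Samhd1 was closest to the clathrin adaptor gene Ap2a2 (0.05; rise of 0.87), Eif2ak2 to the C-type lectin gene Clec12a (0.09; rise of 0.67) and Adar to Prkaca, a catalytic subunit of protein kinase A (0.04; rise of 0.44). Second places went to Ms4a4a for Ifih1, Poglut3 for Zbp1, Pianp for Samhd1, Dok1 for Eif2ak2, Vps35l for Adar and Zfp189 for Mavs, at distances of 0.03 to 0.14. The nearest gene to Mavs was Glod4, which changed by 0.03 (limma adjusted p = 0.73; distance 0.01).

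The signalling genes around MAVS were split. Of 18 genes measured on a list of steps in RIG-I-like receptor and MAVS signalling, which leaves out the 8, 9 rose and 3 fell, with a median change of 0.18, or 0.30 with cyclic loess scaling. Besides Ddx58 the largest rises were those of Ddx60, a helicase described as a cofactor of RIG-I (1.51, SE 0.11), the kinase gene Ikbke (1.48, SE 0.13) and the transcription factor gene Irf7 (1.27, SE 0.04), whose 3 IgG values were identical. Trim25, the ligase that modifies RIG-I, rose by 0.45 (SE 0.06; limma adjusted p = 0.0015). Tbk1, the kinase next to MAVS, rose by 0.21 (SE 0.04; limma adjusted p = 0.011, and 0.052 with the replicate number as a block). Irf3, the factor that TBK1 activates, was at 7.50 ± 0.03 with the antibody and 7.58 ± 0.07 with IgG (SD, n = 3; limma adjusted p = 0.38), and its difference of −0.07 was 0.02 under cyclic loess scaling. The 3 that fell, named after their values were seen, were Dhx9 (−0.36), Tank (−0.27) and Dhx36 (−0.26), and with cyclic loess scaling 0 of the list fell. Leaving out 1 array at a time, Dhx9 missed the threshold in 5 of 6 fits (limma adjusted p of up to 0.11) and Dhx36 in 3 (up to 0.064).

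Of 17 genes described as lowering MAVS signalling, 2 rose (11.8%) and 1 fell (5.88%), beside 12.5% and 16% of all genes. All 17 were above the background guide, where 2932 of 13110 genes, tested alone, rose and 4037 fell. The median of the 17, −0.03, was 0.06 with cyclic loess and 0.01 with each array centred on its median. Usp18, which removes ISG15 from proteins and dampens the interferon receptor, rose by 1.46 (SE 0.06; limma adjusted p = 1.3e-05), and the ubiquitin ligase gene Smurf1 by 0.56 (SE 0.06). Pcbp1 fell by 0.21 (SE 0.05; limma adjusted p = 0.027), and missed the threshold in 4 of 6 fits that left out 1 array (up to 0.083). With median centring its change was −0.16 (limma adjusted p = 0.088), and with cyclic loess −0.09 (limma adjusted p = 0.33). Nlrx1, a mitochondrial protein gene, was at 6.64 ± 0.07 with the antibody and 6.59 ± 0.11 with IgG (SD, n = 3; limma adjusted p = 0.71).

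In the DNA-sensing arm, Cgas, whose product makes the messenger cGAMP when it meets cytosolic DNA, was at 7.71 ± 0.11 with the antibody and 7.79 ± 0.06 with IgG (SD, n = 3), a difference of −0.08 (SE 0.07; limma adjusted p = 0.52) that was 0.03 with cyclic loess scaling. Sting1, which receives that messenger, was higher by 0.17 (SE 0.05; limma adjusted p = 0.047), but missed the threshold in all 6 fits that left out 1 array (0.054 to 0.12). Among 15 genes of cGAS and STING signalling 4 rose (26.7%) and 5 fell (33.3%), with a median of −0.08, which was 0.02 with cyclic loess. All 15 were above the background guide, and of the 13110 genes above it, tested alone, 2932 rose and 4037 fell. The larger changes were falls of Xrcc5 (−0.71, SE 0.04; its 3 antibody values were identical) and Xrcc6 (−0.46, SE 0.05), the subunits of the Ku DNA-end-binding protein, and a rise of the protease gene Sppl2a (0.52, SE 0.08).

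Of 9 genes measured for Z-form sensing and necroptosis, Zbp1 included, 6 rose (66.7%) and 0 fell, with a median of 0.34. Over all genes 12.5% rose and 16% fell. All 9 were above the background guide, where 2932 of 13110 genes, tested alone, rose and 4037 fell. Without Zbp1, 5 of 8 rose, with a median of 0.27. Ripk3, the kinase that ZBP1 recruits, rose by 1.24 (SE 0.09; 2.36-fold; limma adjusted p = 0.00015), and the TNF receptor gene Tnfrsf1a by 1.02 (SE 0.06). Casp6 rose by 0.36 (SE 0.06). Mlkl, the executioner of necroptosis, rose by 0.20 (SE 0.05; limma adjusted p = 0.023), but missed the threshold in 3 of 6 fits that left out 1 array (up to 0.061). Casp8, whose protease restrains necroptosis, was at 11.51 ± 0.04 with the antibody and 11.52 ± 0.04 with IgG (SD, n = 3; limma adjusted p = 0.92).

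PKR belongs to a family of kinases of the translation factor eIF2, whose other members had smaller rises or falls, differences that were not tested against its own. Eif2ak1, the kinase activated by lack of haem, was higher by 0.31 (SE 0.08; limma adjusted p = 0.021). It missed the threshold in 3 of 6 fits that left out 1 array (up to 0.076). Eif2ak3, the kinase PERK of the endoplasmic reticulum, fell by 0.43 (SE 0.07; limma adjusted p = 0.0036). Eif2ak4, the amino acid sensor GCN2, was lower by 0.26 (SE 0.06; limma adjusted p = 0.018). It missed the threshold in 4 of 6 fits that left out 1 array (up to 0.061). With median centring (limma adjusted p = 0.059) and cyclic loess (0.079) its call was lost as well. Prkra, an activator of PKR, was at 6.01 ± 0.12 with the antibody and 5.86 ± 0.11 with IgG (SD, n = 3; limma adjusted p = 0.26). Of 13 genes of the list of PKR and eIF2, Eif2ak2 included, 2 rose (15.4%) and 5 fell (38.5%), beside 12.5% and 16% of all genes. All 13 were above the background guide, where 2932 of 13110 genes, tested alone, rose and 4037 fell. The median of the 13, −0.12, was −0.08 with median centring and −0.03 with cyclic loess. Without Eif2ak2, 1 of 12 rose and 5 fell, with a median of −0.13. The subunit gene Eif2s2 (−0.49, SE 0.07) and Npm1, for a nucleolar protein reported to bind PKR (−0.37, SE 0.05), were among the falls.

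Of 18 genes for nucleases and other proteins that limit nucleic acid sensing, Ifih1, Samhd1 and Adar included, 8 rose (44.4%) and 4 fell (22.2%). Over all genes 12.5% rose and 16% fell. The median of the 18 was 0.02, 0.09 with cyclic loess and −0.02 among those above the background guide. Without Ifih1, Samhd1 and Adar, 5 of 15 rose and 4 fell, with a median of −0.07. Of these, 13 were above the guide, and 4 of the 13 rose and 4 fell. Of all 13110 genes above it, tested alone, 2932 rose and 4037 fell. Pld4, an exonuclease of the endolysosome, rose by 1.06 (SE 0.05; limma adjusted p = 1.8e-05), and Dnase1l1 by 0.95 (SE 0.05). Dnase1l3, a secreted DNase gene, rose by 0.92 (SE 0.10), but its means of 4.29 with the antibody and 3.38 with IgG were below the background guide. The ribonuclease H2 genes Rnaseh2a and Rnaseh2b fell by 0.41 (SE 0.04; limma adjusted p = 0.00072) and 0.26 (SE 0.05; limma adjusted p = 0.0087), and the call of Rnaseh2b was lost with cyclic loess scaling (adjusted p = 0.098).

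Of 8 measured genes for adenosine deaminases and related RNA-binding proteins, 1 rose (12.5%), Adar, and 3 fell (37.5%), beside 12.5% and 16% of all genes. Their median of −0.08 was −0.02 with cyclic loess. Of the 8, 6 were above the background guide, where 2932 of 13110 genes, tested alone, rose and 4037 fell. Without Adar, 0 of 7 rose, with a median of −0.14. Adarb1, the gene of the second editing enzyme, was at 5.73 ± 0.06 with the antibody and 5.68 ± 0.18 with IgG (SD, n = 3; limma adjusted p = 0.74). The 3 that fell were Strbp (−0.60, SE 0.04), the tRNA deaminase gene Adat1 (−0.58, SE 0.09) and Adat2 (−0.28, SE 0.05).

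Genes that supply the dNTPs which SAMHD1 destroys mostly fell. Of 12 measured, 2 rose (16.7%) and 7 fell (58.3%), with a median of −0.46. Over all genes 12.5% rose and 16% fell. Of the 12, 11 were above the background guide, where 2932 of 13110 genes, tested alone, rose and 4037 fell. The ribonucleotide reductase genes Rrm1 and Rrm2 fell by 0.43 (SE 0.05) and 0.58 (SE 0.05), the second by 0.34 with the mean of its probe sets, and Tk1 and Tyms, which make thymidylate in dividing cells, fell by 0.72 (SE 0.05) and 0.65 (SE 0.08). The 2 that rose were salvage kinases, Dck (0.69, SE 0.05) and the mitochondrial Tk2 (0.61, SE 0.05). Limma adjusted p for these 6 ran from 8.6e-05 to 0.0012.

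Genes of interferon signalling and its feedback rose broadly. The list held receptors, kinases, transcription factors, the feedback genes Socs1, Socs3 and Usp18, and Isg15. Of 15 measured, 12 rose (80.0%) and 0 fell, beside 12.5% and 16% of all genes, with a median of 1.10. Irf8 (1.73, SE 0.05; its 3 antibody values were identical, and the mean of its probe sets gave 1.13), Isg15 (1.40, SE 0.11), Jak1 (1.33, SE 0.04), Stat2 (1.24, SE 0.05) and Irf9 (0.84, SE 0.05) were among them. The interferon genes themselves mostly did not pass. Of 20 measured, 1 rose (5.0%) and 1 fell (5.0%), with a median of 0.04 (−0.02 without IgG replicate 3). Of the 20, 9 passed the background guide. Ifnb1, the gene of interferon beta, was at 3.05 ± 0.18 with the antibody and 2.88 ± 0.12 with IgG (SD, n = 3; limma adjusted p = 0.31), below the guide in both, so these values do not show whether it changed. Ifna7 was higher by 0.52 (SE 0.10; limma adjusted p = 0.010) and Ifnab lower by 0.31 (SE 0.08; limma adjusted p = 0.021). Ifnab lay below the guide, and it missed the threshold in 3 of 6 fits without 1 array (limma adjusted p of up to 0.069). Endosomal sensors, which meet nucleic acids taken up from outside, rose as well. Of 11 measured, 9 rose (81.8%) and 0 fell, with a median of 0.92. Tlr3, which binds double-stranded RNA as MDA5 does, rose by 1.67 (SE 0.08), beside 1.81 (SE 0.09) for Tlr7, 1.90 (SE 0.10) for Tlr9 and 1.39 (SE 0.05) for Myd88, the adaptor of Tlr7 and Tlr9. Ticam1, the gene of the adaptor TRIF that Tlr3 uses, was at 6.99 ± 0.03 with the antibody and 6.85 ± 0.16 with IgG (SD, n = 3; limma adjusted p = 0.32, and 0.048 without IgG replicate 3).

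Markers of cell types moved on the same arrays, where 12.5% of all genes rose and 16% fell. All 14 macrophage markers measured were above the background guide and rose, with a median of 0.95. Cd14, a co-receptor for lipopolysaccharide, rose by 1.74 (SE 0.07) and C1qa by 1.52 (SE 0.04). On each array the summed log2 level of the list was 150.5 to 151.4 with the antibody and 136.9 to 137.4 with IgG. Of 15 markers of plasma and myeloma cells, 1 rose and 10 fell, with a median of −0.33 and sums of 135.0 to 136.0 with the antibody and 139.7 to 140.4 with IgG. Of 14 stromal markers, 1 rose and 9 fell, with a median of −0.38 and sums of 85.84 to 86.55 with the antibody and 91.33 to 92.28 with IgG. The 1 that rose, Dcn (named after its value was seen), lay below the guide, and of the 12 above the guide 0 rose and 9 fell. Of 8 T and NK cell markers 1 was above the guide and rose, Cd4, which macrophages can also express (2.00, SE 0.10; named after its value was seen). The other 7 did not pass, and the list median was −0.01. The sums of this list, Cd4 included, were 36.15 to 37.38 with the antibody and 34.41 to 35.35 with IgG. Of 10 neutrophil markers, 2 were above it, with sums of 40.98 to 41.14 with the antibody and 40.83 to 41.21 with IgG. The rises of the 6 genes stood beside the macrophage median of 0.95, and the part of the makeup of the cultures in them was not tested. Over all genes the share of calls that were higher was 43.8%, and 59.2% with cyclic loess scaling (3411 higher and 2346 lower).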

How the data were processed

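GeneChip Mouse Gene 2.0 ST arrays held RNA of 6 macrophage cultures, 3 with the CSF1R antibody and 3 with IgG, per the labels. The deposited values are probe set intensities on a linear scale. The submitters' processing notes name RMA and limma without a version or a role, and the genome build is not given in the sources used here. RMA usually includes quantile normalisation, which would conceal a change shared by most genes. Up to 6.88% of probe sets had identical values on a pair of arrays.

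The deposited intensities were taken to log2. Of 41345 probe sets, 23521 had 1 gene symbol in the platform annotation, which can be old, 1814 had several and 16010 had none, and the last 2 kinds were not used. For 1082 genes with several probe sets, the one with the highest mean was kept. Differences were fitted in R 4.3.3 with limma 3.58.1 (lmFit, eBayes, 4 residual degrees of freedom), and p-values were adjusted by Benjamini-Hochberg over 22180 genes, with 0.05 as threshold. The fit was tested on simulated data. The background guide is the 95th percentile, 4.92, over 1390 odorant and pheromone receptor genes. Exact tests used scipy 1.17.1 and figures matplotlib 3.10.9, in Python 3.11.15.

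The members, lists, tests and naming rule were chosen with earlier results of these data known. Lists were therefore not tested. The rule names the 8 genes, pathway genes given by name (some of which are not reported here), up to 4 genes per list with the largest change past the test, and the 2 nearest profiles of each gene; for lists of marker genes and where space was short, fewer are named. Same-numbered arrays did not deviate together (correlations across genes of 0.0313, −0.0529 and 0.00304 for numbers 1, 2 and 3), so the numbers were not taken as pairs. The alternatives concerned variances (trend, robust), weights of arrays, scaling (median centring, cyclic loess), 3 filters on dim genes, the choice of probe set, a block for replicate number, and single arrays left out. The shorter promoter core was added after the data had been seen.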

Additional observations from a re-analysis of the deposited data

Results flagged for a closer look

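Of the probe sets outside the comparisons, only the one that names Trex1 was looked at, and it gave a signal above that of the IgG arrays. It is annotated to both Trex1 and Atrip, so its signal belongs to neither gene alone, and Trex1 was not reported for that reason. It read 6.88, 7.05 and 6.99 on the antibody arrays and 5.94, 6.14 and 6.10 on the IgG arrays. All antibody arrays lay above all IgG arrays, as they did for 16.6% of all genes tested. The difference was 0.916 on the log2 scale, and it was not tested.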

How the results depend on the processing

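The 6 genes that rose kept their direction and stayed past the threshold under all 17 alternatives. Their changes ranged from 1.60 to 1.79 for Ifih1, 1.51 to 1.64 for Dhx58, 1.35 to 1.49 for Zbp1, 0.86 to 1.00 for Samhd1, 0.62 to 0.83 for Eif2ak2 and 0.40 to 0.54 for Adar, with adjusted p of at most 0.0087. Mavs never passed (adjusted p 0.13 to 1), and its difference ran from −6.17e-05 to 0.152 over the 17 alternatives and from −6.17e-05 to 0.0677 when 1 array was left out. The sign of the difference turned for Irf3 (0.0242) and Cgas (0.0262) with cyclic loess, and for Adarb1 when 1 array was left out (−0.049 to 0.107). It also turned for Casp8 with array weights (0.000277), median centring (0.0368) and cyclic loess (0.107), and for Casp8 (−0.0275 to 0.0117), Nlrx1 (−0.0185 to 0.0882) and Zfp189 (−0.00185 to 0.0791) when 1 array was left out. None of these passed the test, and the cause was not tested. With cyclic loess the changes of Tbk1 (0.332), Sting1 (0.284) and Mlkl (0.315) were larger, and those of Dhx36 (−0.141), Tank (−0.162), Eif2ak4 (−0.169), Adat2 (−0.175) and Rnaseh2b (−0.149) smaller, all by over 1.5 times. Over all genes, cyclic loess left 2346 lower in place of 3548. In the replicate block fit 5549 genes passed in place of 6314, and apart from Tbk1 the calls of Dhx9 (0.055), Pcbp1 (0.062), Sting1 (0.13), Eif2ak4 (0.052) and Mlkl (0.06) were lost, with adjusted p in brackets. Counts over short lists moved by a few genes. Falls in MAVS signalling numbered 0 to 5, those among PKR and eIF2 genes dropped to 3 with either scaling, in the replicate block fit and without antibody replicate 1 or 2 or IgG replicate 1 or 3, and those among nucleases to 2 with cyclic loess, and rises in cGAS and STING signalling to 2 in the replicate block fit and without any one antibody array. The interferon-stimulated core was held by 3.99% of genes over the whole window and by 2.39% over the 200 bases nearest to the start. The shorter core was held by 26.7% over the whole window and 17.4% over those 200 bases. Signal below the guide limits what can be said of interferon genes. With 3 arrays a group, exact tests could not pass 0.05.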
